A study of Mus musculus with 12 samples.

Results

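The genes described here are 7 surface receptors of myeloid cells: the C-type lectins Clec4d, Clec4e, Clec4n, Clec5a and Clec12a, and the Siglecs Cd33 and Siglece. They were chosen by name, and their probes were found through the transcript accession that the array files pair with each probe. Each of the 7 had 1 probe, all 7 probes were above background on all 12 arrays, and all 7 genes were among the 19802 tested. The cells were primary microglia shaken off mixed glial cultures from the brains of newborn C57BL/6 mice. They received for 16 h the supernatant of Th1 cultures (labelled Th1) or of Th17 cultures (labelled Th17), while the controls (labelled untreated) received the medium in which T cells are grown, IMDM. Each group had 4 arrays, from 4 independent experiments numbered 12, 13, 14 and 16, so the spread within a group is the spread between experiments. Supernatants hold whatever T cells release, so the groups differ by a mixture of factors.

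C-type lectin receptors read sugars and lipids on microbes and on dying cells. Mincle (encoded by Clec4e), MCL (Clec4d) and Dectin-2 (Clec4n) lie close together in a lectin gene cluster, carry little signalling tail of their own and signal through the Fc receptor gamma chain Fcer1g, the kinase Syk and the adaptor Card9. MDL-1 (Clec5a) signals through the adaptor DAP12, encoded by Tyrobp. Clec12a and Siglec-E stand on the other side, with inhibitory tyrosine motifs that recruit phosphatases such as SHP-1 (Ptpn6) and SHP-2 (Ptpn11). Siglecs bind sialic acid on the cell's own surface and on its neighbours.

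Clec4d and Clec4e are direct neighbours on chromosome 6, Clec4d on the plus strand and Clec4e on the minus strand, and they moved in opposite directions after Th1 supernatant. The sequences upstream of both start sites are therefore shown, as RefSeq gives them for GRCm38.p6, 5′ to 3′ along each gene and ending at the base before its start. The stretch of Clec4d lies at chr6:123261857-123262106 and that of Clec4e at chr6:123289872-123290121. Capitals mark a match to the C/EBP motif TTGCNNAA, here on the strand opposite to the one printed.
Clec4d: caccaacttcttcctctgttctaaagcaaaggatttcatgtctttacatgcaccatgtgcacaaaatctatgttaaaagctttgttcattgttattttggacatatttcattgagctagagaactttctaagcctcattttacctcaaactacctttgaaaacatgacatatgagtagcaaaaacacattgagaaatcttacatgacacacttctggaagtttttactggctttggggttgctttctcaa
Clec4e: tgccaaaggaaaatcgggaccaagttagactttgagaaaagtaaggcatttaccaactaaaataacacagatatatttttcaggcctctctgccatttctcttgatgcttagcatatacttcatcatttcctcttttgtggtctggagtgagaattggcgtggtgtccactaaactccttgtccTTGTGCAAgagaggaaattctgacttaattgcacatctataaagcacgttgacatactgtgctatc
The windows searched reached from 250 bases before to 50 after the start, on both strands. The Clec4e match began at position -66 from the start, and 10.8% of all 32851 RefSeq promoters in the table held this motif. Clec4d had no match in the stretch printed, and its sole match was to the interferon response core GAAANNGAA, on the opposite strand from base 2 of the transcript (8.56% of all promoters). Clec12a held a C/EBP match at position -140 and a match to the AP-1 motif TGANTCA at position -213 (7.81% of promoters). Clec5a, Cd33 and Siglece held none of the 6 motifs searched, the others being the STAT motif TTCNNNGAA (8.30%), the PU.1 motif GAGGAAGT (3.20%) and the NF-kappaB motif GGANTTTCC (1.25%). For Clec4n no promoter sequence was used here.

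The cells carried the label's markers. All 15 microglia markers with a probe were above background on all 12 arrays, and so were some markers of other cells. Of 9 T cell markers, 5 (Cd3e, Cd4, Lck, Cd5 and Cd28) were above background on all 12 arrays and 4 (Cd3g, Cd3d, Cd8a and Trat1) on none. Of 12 neutrophil markers with a probe 5 were so on all arrays and Mpo, Ngp and Ltf on none, and of 9 perivascular macrophage markers 6 were so on all arrays and Cd163 and Lyve1 on none. Between 54.5% and 65.0% of probes were above background per array, no spot was marked as saturated, and precision is limited by having 4 arrays in a group. Signals below are normalised intensity units, comparable between arrays for a probe but not between probes, and are given in the order of experiments 12, 13, 14 and 16. Calls followed the study's thresholds, a change of over 2-fold with an adjusted p under 0.01 in limma. Where the experiment is named as a block, each array was set against the others of its own experiment.

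Th1 supernatant changed 2 of the 5 lectins and left no call among the Siglecs. Clec4d was 4.20-fold lower and Clec4e 6.31-fold higher in Th1 than in untreated microglia, while Clec5a and Clec4n were more than 2-fold higher without reaching the p threshold on group means over all 12 arrays. So 1 of the 7 genes rose and 1 fell, where 7.49% of all genes tested rose and 7.88% fell. With the experiment as a block 3 rose and 1 fell (7.88% and 9.31% of all genes). The median log2 fold change of the 7 genes was 0.77, against -0.06 over all genes tested. After Th17 supernatant 0 of the 7 were called (0% of all genes), and at an unadjusted p under 0.05 in limma 0 of the 7 and 325 of all genes passed. Th1 set against Th17 gave the same split as Th1 against untreated, 1 higher and 1 lower (6.89% and 7.91% of all genes), and with the block 2 higher and 1 lower (7.27% and 9.05%). These comparisons share arrays, so their values are given side by side and support nothing jointly.

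**Figure D1:**
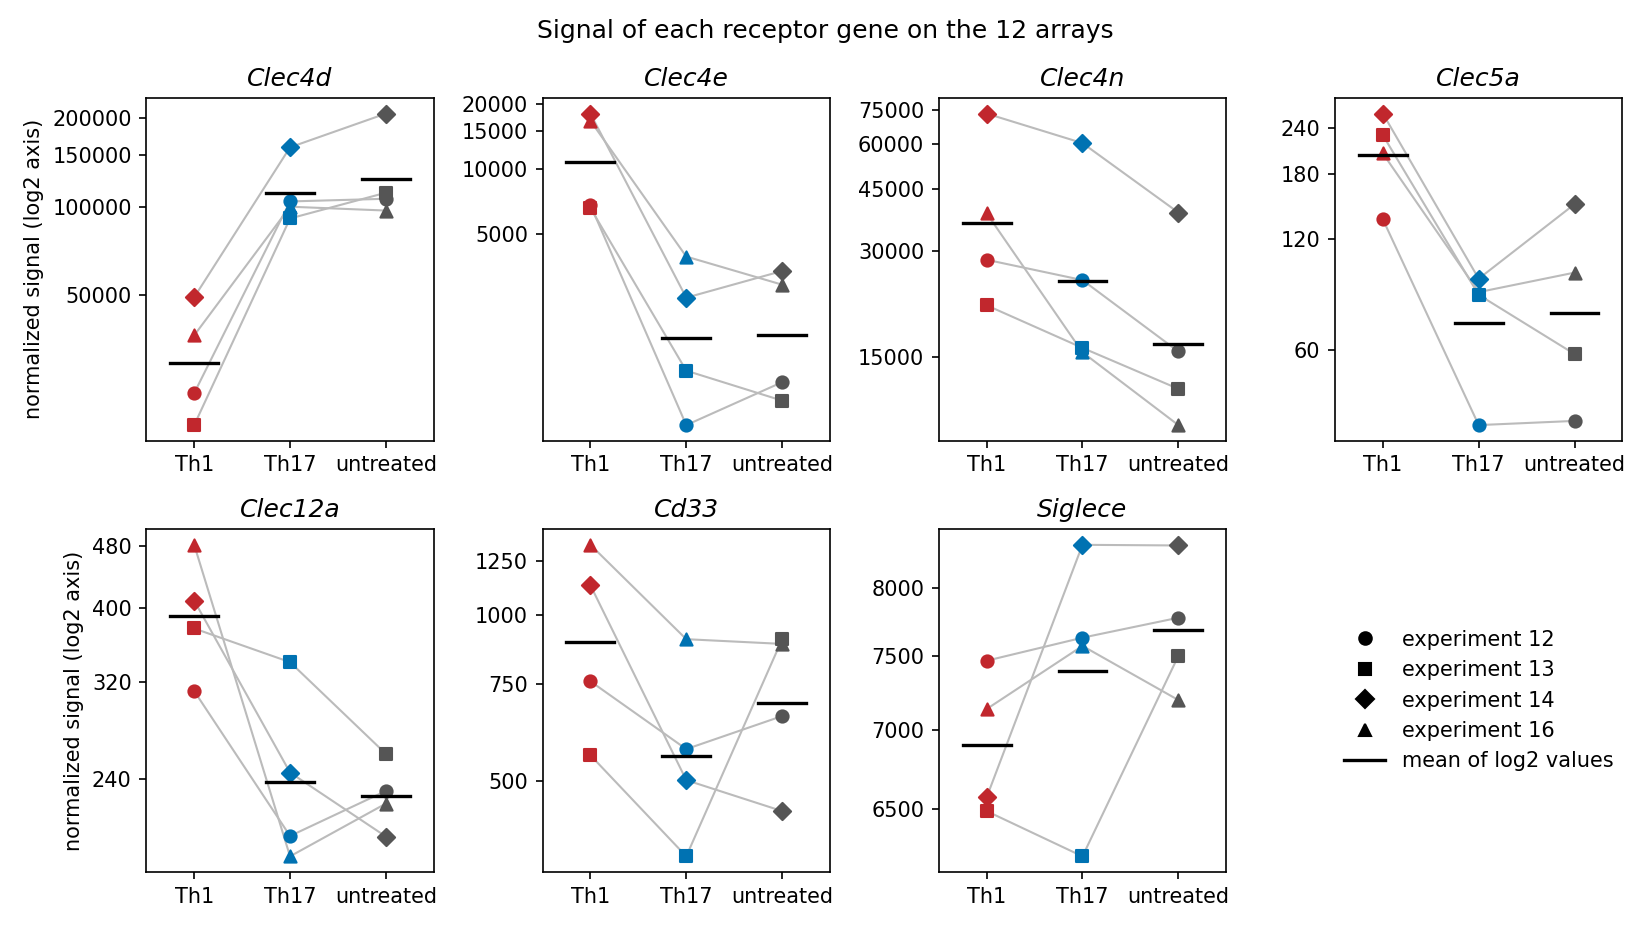
Normalised signal of the 7 receptor genes on a log2 axis (intensity units), with Th1, Th17 and untreated arrays from left to right, a symbol for each experiment, grey lines joining arrays of an experiment and black bars at the mean of log2 values. Clec4d lies lower and Clec4e higher on all 4 Th1 arrays than on any other array, and experiment 14 is high for Clec4d and Clec4n in every group.

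MCL, the product of Clec4d, is found on resting myeloid cells and can pair with Mincle. Clec4d had 23333, 18178, 49293 and 36623 units in Th1 microglia, 104106, 91146, 158812 and 99911 in Th17 microglia, and 106284, 111432, 206641 and 96959 in untreated microglia. All 4 Th1 arrays lay below all 8 others, and Th17 and untreated arrays overlapped. In Th1 against untreated, Clec4d fell by 2.07 ± 0.33 on the log2 scale (SE; limma adjusted p = 0.000397). It fell by 1.90 ± 0.33 in Th1 against Th17 (limma adjusted p = 0.00075). The drop was present in each experiment, with Th1 minus untreated differences of -2.19, -2.62, -2.07 and -1.40, and within each of the 3 slides, where it ran from -2.79 to -1.40. Th17 against untreated gave -0.16 ± 0.33 (95% interval -0.89 to 0.56, adjusted p = 1). Of all genes tested, Clec4d ranked at 1203 by the size of its log2 fold change in Th1 against untreated.

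Mincle, the product of Clec4e, binds mycobacterial cord factor and a nuclear protein released by dying cells, and it is usually scarce until myeloid cells are stimulated. Clec4e had 6794, 6573, 17994 and 16672 units in Th1 microglia, 650.5, 1162, 2529 and 3920 in Th17 microglia, and 1028, 844.4, 3360 and 2905 in untreated microglia. The lowest Th1 array lay above the highest of the other 8. Within each group experiments 14 and 16 stood above 12 and 13, and untreated arrays spanned a 3.98-fold range and Th17 arrays a 6.03-fold range.

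Clec4e rose by 2.66 ± 0.63 on the log2 scale in Th1 against untreated (limma adjusted p = 0.00531) and by 2.70 ± 0.63 in Th1 against Th17 (limma adjusted p = 0.005). The differences within experiments were far more alike than the levels: 2.73, 2.96, 2.42 and 2.52 for Th1 minus untreated. With the experiment as a block the SE was 0.21 and the adjusted p 2.01e-05. Within slides, which mix experiments, the difference ran from 1.69 to 2.87. Without the block the call did not hold in every setting: in Th1 against untreated, leaving out Th1 14, Th1 16, untreated 12 or untreated 13 gave adjusted p = 0.0179, 0.0158, 0.0177 and 0.0184, and in Th1 against Th17, leaving out Th1 14, Th1 16, Th17 12 or Th17 13 gave 0.017, 0.0147, 0.0152 and 0.0154. For Th17 against untreated the difference was -0.04 ± 0.63 (95% interval -1.43 to 1.34).

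Dectin-2, the product of Clec4n, binds mannose-rich fungal sugars. Clec4n had 28304, 21043, 73296 and 38302 units in Th1 microglia, 24798, 15950, 60480 and 15500 in Th17 microglia, and 15582, 12219, 38493 and 9651 in untreated microglia. The groups overlapped because the experiments lay far apart, with experiment 14 the highest in every group and a 3.99-fold range among untreated arrays alone. Inside each of the 4 experiments the order was the same: Th1 above Th17, and Th17 above untreated.

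For Clec4n the call depended on whether that pairing was used. Th1 against untreated gave 1.14 ± 0.54 and an adjusted p of 0.109 in limma on group means, and 1.14 ± 0.20 and an adjusted p of 0.00148 with the experiment as a block, which is a call. The differences within experiments were 0.86, 0.78, 0.93 and 1.99, so only that of experiment 16 was over 2-fold. On group means, leaving out single arrays gave values from 0.80 to 1.55. Within slides they were 1.04, 0.03 and 1.99, the lowest on the slide where the untreated array came from experiment 14. Th17 against untreated gave 0.60 ± 0.54 on group means (adjusted p = 1). The block narrowed this to 0.60 ± 0.20, with an unadjusted p of 0.0166 and an adjusted p of 0.901 in limma, so no call was made. Th17 was above untreated in 4 of 4 experiments, by 0.67, 0.38, 0.65 and 0.68. The share of all genes with the same sign in 4 of 4 experiments is not given here. Within slides the differences were 0.85, -1.27 and 1.67, the negative value on the slide whose untreated array came from experiment 14. Th1 against Th17 gave 0.54 ± 0.54 (limma adjusted p = 0.449).

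MDL-1, the product of Clec5a, amplifies myeloid inflammation and binds flaviviruses. Clec5a had 136, 230, 263 and 205 units in Th1 microglia, 37.6, 84.9, 93.8 and 86.3 in Th17 microglia, and 38.6, 58.6, 149 and 97.5 in untreated microglia. Every Th1 array lay above every Th17 array, but Th1 12 lay below untreated 14, so Th1 and untreated arrays overlapped. Th1 against untreated gave 1.42 ± 0.42 (adjusted p = 0.0163 in limma), a 2.67-fold difference that missed the threshold, and Th1 against Th17 gave 1.51 ± 0.42 (adjusted p = 0.0123). With the experiment as a block both were calls, with adjusted p = 0.000471 against untreated and 0.000353 against Th17, and Th1 was higher in 4 of 4 experiments in each. Without untreated 14 the value against untreated was 1.74 with an adjusted p of 0.00432. Another background correction, normexp with an offset of 50, shrank the difference to 0.66 (adjusted p = 0.00556), under 2-fold.

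**Figure D2:**
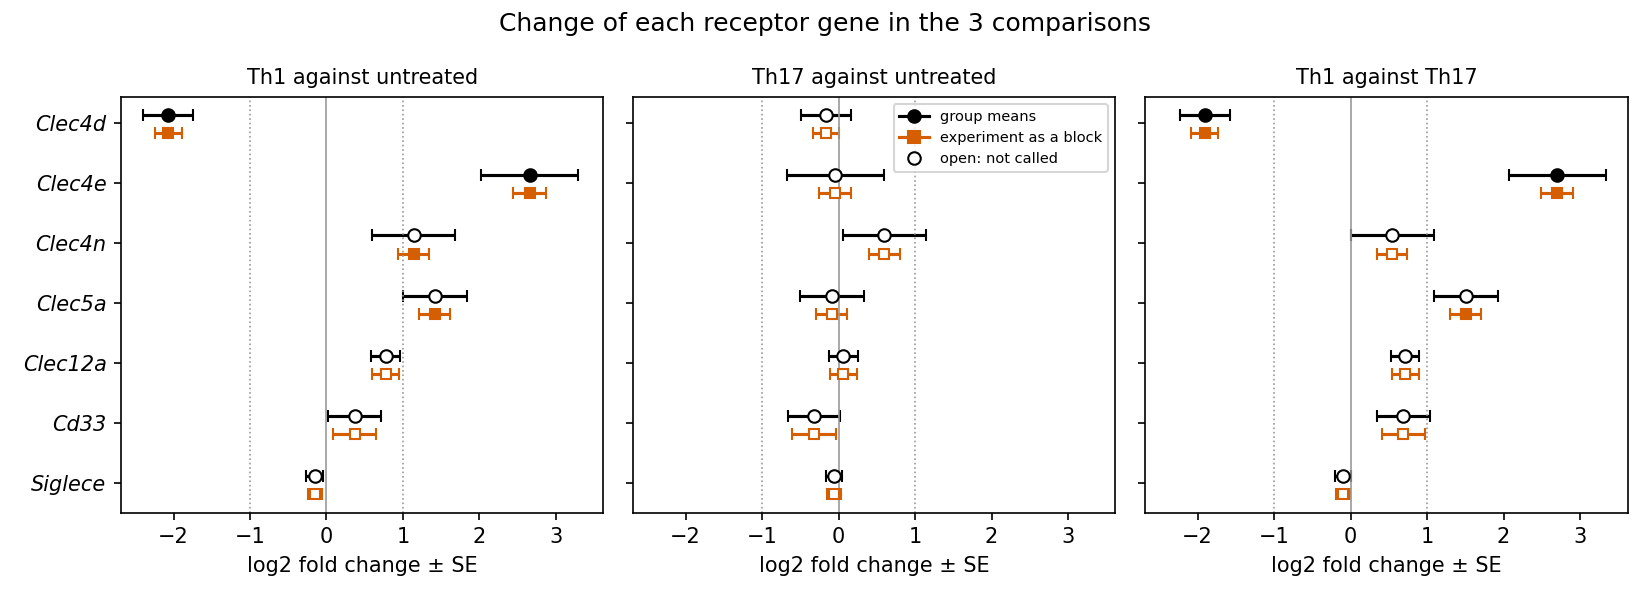
Log2 fold change ± SE of each receptor gene in the 3 comparisons, from group means over all 12 arrays (black circles) and with the experiment as a block (orange squares), filled where called. Dotted lines mark a 2-fold change. Clec4d lies near -2 and Clec4e near 2.7 in both comparisons with Th1, the block narrows the bars of Clec4e, Clec4n and Clec5a most, and no Th17 against untreated value is called.

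**Figure D3:**
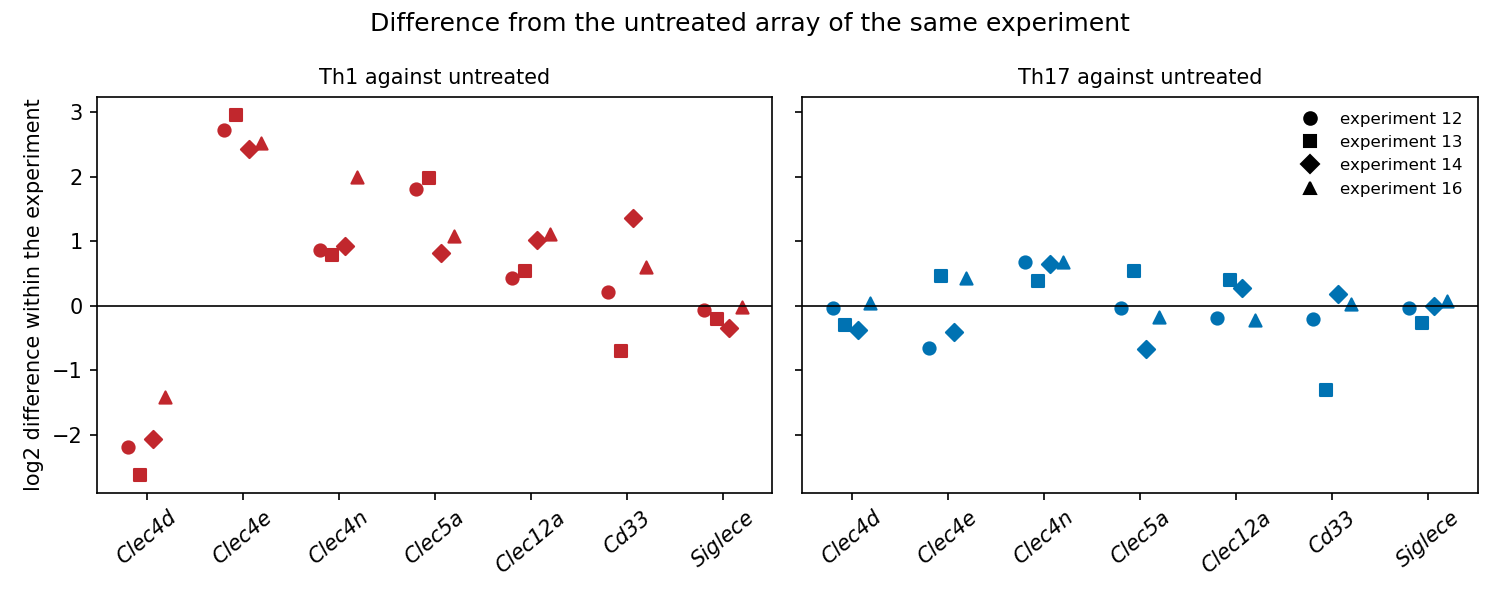
Log2 difference of the Th1 and of the Th17 array from the untreated array of the same experiment, a symbol for each experiment. Th1 differences of Clec4e, Clec4n, Clec5a and Clec12a are positive and those of Clec4d negative in all 4 experiments, and the Th17 differences are positive in all 4 experiments for Clec4n alone.

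Clec12a is an inhibitory lectin that senses uric acid crystals from dead cells. Clec12a had 312, 376, 408 and 482 units in Th1 microglia, 202, 340, 245 and 191 in Th17 microglia, and 232, 259, 202 and 223 in untreated microglia. All 4 Th1 arrays lay above all 4 untreated arrays, whereas Th17 13 lay above Th1 12. Th1 against untreated gave 0.77 ± 0.19 (limma adjusted p = 0.00595). This passed the p threshold but not the fold threshold, at 1.71-fold, and was not called, and the same held for Th1 against Th17, with 0.71 ± 0.19 (limma adjusted p = 0.00975).

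CD33 is a sialic acid receptor whose human gene is linked to Alzheimer disease. Cd33 had 758, 556, 1132 and 1340 units in Th1 microglia, 571, 365, 501 and 903 in Th17 microglia, and 655, 903, 441 and 886 in untreated microglia. The 3 groups overlapped, and Th1 was above untreated in 3 of 4 experiments. The difference was 0.37 ± 0.34 for Th1 against untreated (95% interval -0.38 to 1.12, limma adjusted p = 0.411) and -0.32 ± 0.34 for Th17 against untreated (interval -1.07 to 0.43), so neither a 2-fold rise after Th1 nor a 2-fold drop after Th17 was outside the interval. Th1 against Th17 gave 0.69 ± 0.34 (limma adjusted p = 0.126), with Th1 higher in 4 of 4 experiments.

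Siglec-E is an inhibitory Siglec of mouse myeloid cells and restrains their oxidative burst. Siglece had 7469, 6486, 6570 and 7138 units in Th1 microglia, 7633, 6216, 8328 and 7574 in Th17 microglia, and 7777, 7502, 8323 and 7199 in untreated microglia. Its arrays lay close together, with a 1.15-fold range among Th1 arrays, a 1.34-fold range among Th17 arrays and a 1.16-fold range among untreated arrays. Its difference was -0.16 ± 0.11 for Th1 against untreated (95% interval -0.39 to 0.08, limma adjusted p = 0.262) and -0.06 ± 0.11 for Th17 against untreated (interval -0.29 to 0.18). These intervals lie inside a 2-fold change in either direction. Th1 was below untreated in 4 of 4 experiments (-0.06, -0.21, -0.34 and -0.01), but the mean difference turned to 0.02 when arrays were scaled without quantile normalisation.

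Clec4d, Clec4e, Clec4n and Clec5a differed more between experiments than Clec12a, Cd33 and Siglece did. Averaged over the 3 groups, Clec4n was 1.79 higher on the log2 scale in experiment 14 than in experiment 13, Clec4d 1.04 higher between the same experiments, Clec4e 1.80 higher in experiment 16 than in experiment 12, and Clec5a 1.41 higher in experiment 14 than in experiment 12. For Clec12a, Cd33 and Siglece the widest gaps were 0.39, 0.85 and 0.20. The same gaps over all genes are not given here. All arrays of experiment 12 were on slide 1 and all of experiment 16 on slide 3, so experiment and slide cannot be told apart between them. After the group means were taken out, Clec4d and Clec4n varied together over the 12 arrays (Pearson r = 0.93), and so did Clec4e and Clec5a (r = 0.78). The 12 arrays come from 4 experiments, so these are descriptions of points that are not independent. The Clec4d and Clec4e pair had r = -0.60 with the group means left in and 0.57 with them taken out.

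For each receptor gene the most alike genes were taken from all named genes tested, so high values follow from the picking. The shifts between groups are included in them. By Pearson r of log2 signal over the 12 arrays, the nearest to Clec4d were Adipor2 (0.99), Rhbdf1 (0.98) and Glis2 (0.98), and the nearest to Clec4e were Cptp (0.99), Pdpn (0.98) and Mtif3 (0.97). Clec4n was nearest to Htra1 (0.94) and Ppp2r5b (0.92), and Clec5a to Prpf18 (0.98) and Gpr107 (0.97). For Clec12a these were Twsg1 (0.94), Ascl2 (0.94) and Gpr31b (0.92). The weakest likeness was that of Cd33, with Arhgap26 (0.90), Tas2r109 (0.89) and Tmem201 (0.87), and Siglece lay between, with Elk4 (0.95), Kctd14 (0.91) and Notch1 (0.91).

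RNA was taken from whole cultures, so fewer cells of a type and less RNA per cell cannot be told apart, and markers of other cells were read beside the lectins as summed signals, in which the brightest probes weigh most. The summed signal of 7 of 9 perivascular macrophage markers ran from 66518 to 113768 units in Th1 microglia, 192639 to 292127 in Th17 microglia and 197077 to 267777 in untreated microglia, lower in Th1 with no overlap. Within that list 4 of the 7 fell in Th1 against untreated and 2 rose, Clec10a by 2.73 and Siglec1 by 1.01 on the log2 scale, and Ms4a7, which averaged 74133 units in Th1, 197378 in Th17 and 198784 in untreated microglia, carried most of the sum. For 6 of 13 neutrophil markers the sums were 29335 to 43625 in Th1, 35789 to 57505 in Th17 and 40747 to 58151 in untreated microglia, with overlap. For 5 of 9 dendritic cell markers, Clec9a among them, they were 15317 to 22749 in Th1, 3882 to 13760 in Th17 and 2767 to 14241 in untreated microglia, higher in Th1 with no overlap. Clec9a averaged 4629 units in Th1 and lay at the floor of 15 in the other groups. It was kept for testing through the Th1 arrays alone. The gap between the Th1 sums and the others is smaller than its Th1 signal, so the lack of overlap rests in part on it. Xcr1 and Btla of the dendritic cell list were not above background on any array. The microglia sum itself, over 15 of 16 markers, was 1009086 to 1079549 in Th1, 1275100 to 1689457 in Th17 and 1267346 to 1688070 in untreated microglia, again lower in Th1 with no overlap, as were the sums of 4 of 5 neuron and 3 of 5 B cell markers. The part of these shifts in the lectin results was not tested.

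The further lectin genes of the Dectin-2 cluster that were tested held no call. In Th1 against untreated 7.49% of all genes rose and 7.88% fell, so no call among 6 genes is near that share. Of these 6 (Clec4a1 to Clec4a4, Clec4b1 and Clec4b2) 0 were called in any comparison, with Th1 against untreated values from -0.78 to 0.80, the lowest being Clec4a2, which was not above background on Th1 arrays. After Th17 supernatant all 6 had positive values, from 0.40 to 0.91, with a median of 0.49 against -0.00 over all genes tested. An unadjusted p under 0.05 in limma was reached there by 0 of the 6, beside 325 of all 19802 genes. In Th1 against Th17, 3 of the 6 had one, beside 10077 of all 19802 genes, so this count is near the share of all genes. The 3 were Clec4a1, Clec4a2 and Clec4a4, with values of -0.87, -1.23 and -1.19. Clec4a2 lay at the floor of 15 in Th1, so its value rests on the floor, and the bound was at least 1.53-fold. Clec4a and Clec4b copies are close in sequence, so signal shared between them could not be separated. Among genes in or near the Dectin-1 cluster, which holds Clec12a, 3 of 5 tested rose after Th1 and 0 fell (7.49% and 7.88% of all genes). Clec9a, a receptor for actin exposed by dead cells, was not well above background in untreated or Th17 microglia and was at least 266-fold higher in Th1 than in untreated microglia. It passed the filter on dim probes through the Th1 arrays alone, so its call, counted among the 3, was bound to follow. Such a bound compares the mean of Th1 arrays with the lowest signals that counted as above background on the dimmer arrays. Clec2d rose by 1.86 ± 0.44 and Clec1b by 1.19 ± 0.17 on the log2 scale in Th1 against untreated. Clec7a, which encodes Dectin-1, was not analysed here.

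**Figure D4:**
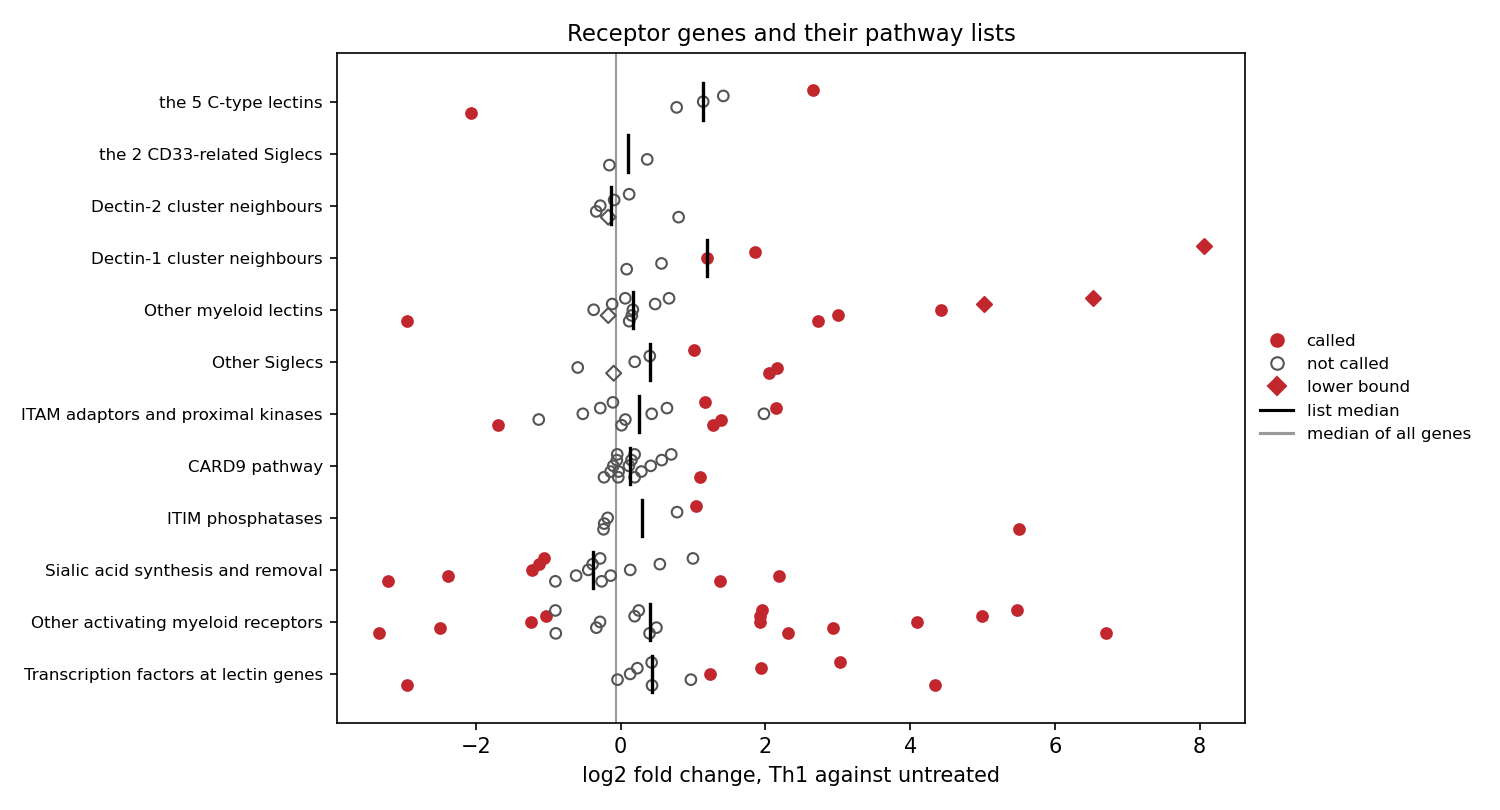
Log2 fold change of Th1 against untreated for the 7 receptor genes and the tested genes of 10 related lists, filled where called, with diamonds for genes above background in only some groups, drawn at their bound, black bars at list medians and a grey line at the median of all genes (-0.06). The lectins spread from -2.07 to 2.66 and the CARD9 pathway stays between -0.23 and 1.10. The Dectin-2 cluster neighbours hold no call, where 7.49% of all genes rose and 7.88% fell.

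Among 15 further myeloid lectins tested (Clec4a2 counted again), 5 rose and 1 fell after Th1, where 7.49% and 7.88% of all genes did. Klrb1b and Klrk1, receptors of the natural killer lectin family, were not well above background in untreated or Th17 microglia. They were at least 92.6-fold and 32.4-fold higher in Th1 than in untreated microglia. They too passed the filter through Th1 alone, so their calls, counted among the 5, were bound to follow. Cd69, an early activation antigen with a lectin fold, rose by 4.42 ± 0.73. The scavenger lectin Colec12 fell by 2.95 ± 0.13. Of 7 further Siglecs, 3 rose and 0 fell, beside the same shares of all genes. Siglecf, the mouse eosinophil Siglec, rose by 2.16 ± 0.32, the myelin-associated glycoprotein gene Mag by 2.06 ± 0.16, and Siglec1 by 1.01 ± 0.23, although a second Siglec1 probe gave 0.59 with an adjusted p of 0.0956.

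None of the shared signalling partners of the activating lectins changed by 2-fold. Fcer1g, the gamma chain used by Mincle, MCL and Dectin-2, gave 0.43 ± 0.10 in Th1 against untreated (adjusted p = 0.00397), Tyrobp, the partner of MDL-1, gave -0.28 ± 0.09 (adjusted p = 0.0234), and the related adaptor Hcst gave -0.52 ± 0.14 (adjusted p = 0.00868), none of them 2-fold. Syk gave 0.07 ± 0.19 and Card9 0.11 ± 0.10. In the list of adaptors and proximal kinases 4 of 14 rose and 1 fell, where 7.49% and 7.88% of all genes did. Among them, the kinase genes Src and Lyn rose by 2.14 ± 0.17 and 1.16 ± 0.18, the adaptor gene Lcp2 rose by 1.27 ± 0.16, and Blnk, which encodes an adaptor of Syk, fell by 1.69 ± 0.12. In the CARD9 pathway 1 of 16 genes was called, Nfatc2, which rose by 1.10 ± 0.26. That count is near the share of all genes that rose.

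On the inhibitory side the 2 phosphatases nearest to Clec12a and Siglec-E were not called. Ptpn6, the phosphatase SHP-1, gave 0.78 ± 0.19 in Th1 against untreated (adjusted p = 0.00572), under 2-fold, and Ptpn11 gave -0.23 ± 0.09 (adjusted p = 0.0725). Of the 6 genes in the phosphatase list 2 rose and 0 fell, where 7.49% and 7.88% of all genes did. The 2 that rose were Socs3, a cytokine feedback inhibitor, by 5.50 ± 0.36, and Ptprc, the CD45 phosphatase, by 1.04 ± 0.18. The enzymes that make and trim sialic acid, the ligand of CD33 and Siglec-E, split by member. Of 17 tested, 2 rose and 5 fell, beside the same shares of all genes. The sialyltransferase genes St8sia4 and St6gal1 fell by 3.21 ± 0.33 and 2.38 ± 0.23, while St6galnac4 and St3gal5 rose by 2.19 ± 0.22 and 1.37 ± 0.21. The list median was -0.39, against -0.06 over all genes tested.

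Other receptors of the same paired activating and inhibitory kind also split by member. Of 21 tested, 9 rose and 4 fell after Th1, where 7.49% and 7.88% of all genes did. Cd300lf rose by 6.71 ± 0.72, and the Fc receptor gene Fcgr4, which also signals through Fcer1g, by 5.48 ± 0.37. Cd300lb fell by 3.34 ± 0.24, and Trem2, a lipid receptor of microglia that uses DAP12 as MDL-1 does, fell by 2.50 ± 0.22. Among 11 tested transcription factors known to act on lectin genes, 4 rose and 1 fell, beside the same shares of all genes. Irf1 rose by 4.34 ± 0.25 and Hif1a by 1.95 ± 0.22, while Cebpa fell by 2.95 ± 0.26. The related factor gene Cebpb gave 0.97 ± 0.24 in Th1 against untreated (adjusted p = 0.00632), short of 2-fold, and was called in Th1 against Th17 at 1.10 (adjusted p = 0.00316). Of the 117 genes tested in these 10 lists, limma called 45 in Th1 against untreated and 0 in Th17 against untreated, beside 3044 and 0 of all 19802 genes. The 45 include Clec9a, Klrb1b and Klrk1, which passed the filter through Th1 alone. At an unadjusted p under 0.05 the counts were 71 and 8 of the 117, beside 10242 and 325 of all genes.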

How the data were processed

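Total RNA was labelled with Cy3 and hybridised to 1-colour Agilent mouse arrays, 1 sample per array and 4 arrays on each of 3 slides. Per the file headers, the authors read the scans with Feature Extraction 10.7.3.1. Their deposited files hold linear intensity values after background subtraction, with no scaling between arrays. A deposited table of log2 values, scaled and centred per probe by the authors with the scale not stated, matched the same signals (Pearson r of at least 0.99999, column medians -0.226 to 0.18) and served as an alternative. Flagged spots (103 to 230 per array) were left out and repeated spots averaged. Signals were quantile normalised, scaled to a 75th percentile of 1500, floored at 15 and log2 transformed. Probes well above background on at least 4 arrays were kept (24287 of 39429), with the brightest probe of each gene. Names came from RefSeq accessions (69.1% of probes matched). limma 3.58.1 in R 4.3.3 fitted 1 mean per group over all 12 arrays, adjusted by Benjamini-Hochberg over 19802 genes.

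Same-numbered arrays deviated together from their group means (r from 0.24 to 0.63 over 12 pairs), and the design text describes independent experiments, so numbers were treated as pairs in an alternative fit. All 7 receptor genes are named, with at most 4 called genes per list and comparison, and adaptors and phosphatases always. A few genes that this rule takes are not reported here. The genes and lists were chosen with earlier results of these data known. Normexp used the median signals. The alternatives were the scaling, background correction, floor, filter, block, slide, arrays fitted and each array left out.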

Additional observations from a re-analysis of the deposited data

Results flagged for a closer look

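Clec5a on the array Th17 12 stood apart from the rest of its group. It read 37.6 units, against 84.9 to 93.8 on the other 3 Th17 arrays, and the gap was 0.890 of the range of the group, above Dixon's limit for 4 values. The untreated array of the same experiment was the lowest of its own group for Clec5a too, at 38.6 units. Of the 21 combinations of gene and group examined 1 was picked out, and chance picks out about 1 in 20. Without Th17 12, Clec5a in Th1 against Th17 was 1.20 on the log2 scale and in Th17 against untreated 0.22.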

How the results depend on the processing

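Counts of called receptor genes were 2 in Th1 against untreated, 2 in Th1 against Th17 and 0 in Th17 against untreated. A floor of 50 and no filter on dim probes each left 1 in both comparisons with Th1, where Clec4e was lost (adjusted p of 0.0107 and 0.0188 against untreated, 0.01004 and 0.0177 against Th17, after 0.00531 and 0.005). With the replicate block 4 were called in Th1 against untreated, Clec4n and Clec5a being gained, and Clec5a was also gained against Th17. The block changed no other call. Leaving out each array gave 1 to 3 calls in Th1 against untreated and 1 to 2 in Th1 against Th17. Clec5a was also called with the slide as a block (1.11, adjusted p = 0.00106 against untreated, 1.46 and 0.000252 against Th17) and, against Th17, with 8 arrays fitted (adjusted p = 0.00632). Of 399 refitted log2 values, 366 kept sign and side of the threshold and 14 changed sign, none of them called. Siglece turned to 0.0211 in Th1 against untreated and 0.0859 in Th1 against Th17 under 75th percentile scaling, and to 0.0225 and 0.0857 in the deposited table. Leaving out single arrays turned Th17 against untreated in Clec12a (-0.11 to 0.17), Clec4d (-0.34 to 0.0811), Clec4e (-0.46 to 0.40), Clec5a (-0.41 to 0.24) and Siglece (-0.11 to 0.0275). Over all genes, 3044 were called in Th1 against untreated and 2931 against Th17, and normexp gave 2001 and 1922. With 4 arrays a group and dim signal for Clec5a, smaller differences were not resolved.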
